A study of Mus musculus with 15 samples.

Results

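Myoglobin and the phosphocreatine energy buffer were followed through 7 genes of cultured mouse cardiomyocytes: *Mb*, *Ckm*, *Ckmt2*, *Ckb*, *Gatm*, *Slc6a8* and *Ak1*. They were chosen by name, with earlier results of these data known. All 7 were among the 14337 genes of the table and among the 12848 tested. Those tested had a mean of at least 0 on the log2 RPKM scale (RPKM, reads scaled by transcript length and library size). The study asked whether low-dose cilengitide (ldCil), a cyclic peptide made to bind αv integrins and once tried against cancer, alters the response of cardiomyocytes to angiotensin II (AngII), a peptide hormone that causes hypertrophy. RNA-Seq was performed on poly(A)-captured RNA of primary cardiomyocytes from whole hearts of C57/BL6 wild-type pups aged 1 to 3 days. The cells were cultured for 5 days, starved for 24 h in 0.5% serum, treated on day 6 and lysed on day 8. The 3 control libraries (S1 to S3) received neither agent, the 4 AngII libraries (S5 to S8) received 1 µM AngII, the 4 ldCil libraries (S9 to S12) received 20 nM cilengitide, and the 4 AngII + ldCil libraries (S13 to S16) received both. The sources used here do not say whether the libraries of a group came from separate litters or cultures, so the spread between them may be technical.

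Cells that use ATP in bursts keep it in supply through phosphocreatine. Mitochondrial creatine kinase charges creatine where ATP is made, cytosolic creatine kinase recharges ADP beside the myofibrils and pumps, and adenylate kinase adds a further route from ADP to ATP. Creatine is made from arginine and glycine, largely outside the heart, and enters cardiomyocytes through a transporter, while myoglobin, the haem protein of heart and oxidative muscle, binds oxygen and helps it to diffuse to the mitochondria. The maturing heart is known for a shift from brain-type towards muscle-type creatine kinase.

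The cells carried cardiomyocyte transcripts. All 25 cardiomyocyte markers were measured, from *Tnni1* at a mean of 4.16 to *Nppa* at 11.99 log2 RPKM. Markers of other cells were present too, with *Sparc* of the fibroblast list at 10.18, *Acta2* of the smooth muscle list at 10.11 and *Lyz2* of the macrophage list at 7.37. In such bulk libraries, fewer cells of a type and less RNA per cell cannot be told apart. Read depth per library is unknown, since the values used are normalised. Down to the 8642nd highest value, the sorted values of the 15 libraries differed by no more than 0.01, so in this range a value gives a gene's rank within its library. Library S16 of the AngII + ldCil group stood apart, with the lowest fibroblast list (-1.12, as the mean log2 deviation of the list from its mean over all libraries), macrophage list (-1.58) and smooth muscle list (-0.52), while its cardiomyocyte list was at 0.18. Many of the levels, differences and correlations that moved with S16 are given without it as well.

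Upstream sequences of *Mb*, *Ckm* and *Ckmt2*, the 3 members whose AngII and control libraries did not overlap, are shown beside that of *Ckb*, whose libraries did, so that their motifs can be compared. RefSeq promoter windows on GRCm38.p6, with 250 bases before and 50 after a transcript start, were found for 6 of the 7 genes. The table held none for *Slc6a8*. Printed are the 250 bases before the start, 5′ to 3′ on the gene's strand, and for *Mb*, which has 3 listed starts, those before the start nearest to its 3′ end. Capitals mark each match, on either strand, to one of the motifs searched. These were the E-box, spelt CANNTG, and the TATA motif of RNA polymerase promoters, spelt TATAAA. The GC box bound by Sp factors was spelt GGGCGG. The core of the element of oestrogen-related receptors (ERR), which activate genes of energy metabolism, was spelt AAGGTCA. The longer ERR element, which contains this core, was spelt TCAAGGTCA. The MEF2 consensus and the CArG box of serum response factor were searched as well. The TATA match in *Ckb* lies within its MEF2 match. The windows lie at chr15:77022728-77022977 on the minus strand (*Mb*), chr7:19410844-19411093 on the plus strand (*Ckm*), chr13:91876886-91877135 on the minus strand (*Ckmt2*) and chr12:111672339-111672588 on the minus strand (*Ckb*).
Mb: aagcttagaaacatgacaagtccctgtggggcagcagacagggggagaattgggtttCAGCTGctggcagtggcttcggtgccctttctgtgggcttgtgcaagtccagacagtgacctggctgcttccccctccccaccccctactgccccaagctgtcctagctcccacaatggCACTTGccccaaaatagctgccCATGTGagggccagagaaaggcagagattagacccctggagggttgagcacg
Ckm: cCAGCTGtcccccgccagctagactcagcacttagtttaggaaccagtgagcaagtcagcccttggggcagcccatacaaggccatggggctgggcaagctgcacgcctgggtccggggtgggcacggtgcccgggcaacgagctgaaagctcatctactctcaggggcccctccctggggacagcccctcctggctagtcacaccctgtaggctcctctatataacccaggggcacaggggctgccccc
Ckmt2: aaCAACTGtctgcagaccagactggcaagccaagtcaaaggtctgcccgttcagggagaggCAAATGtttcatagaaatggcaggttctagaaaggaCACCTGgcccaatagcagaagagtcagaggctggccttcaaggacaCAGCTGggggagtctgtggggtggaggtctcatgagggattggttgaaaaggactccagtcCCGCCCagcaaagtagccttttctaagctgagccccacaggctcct
Ckb: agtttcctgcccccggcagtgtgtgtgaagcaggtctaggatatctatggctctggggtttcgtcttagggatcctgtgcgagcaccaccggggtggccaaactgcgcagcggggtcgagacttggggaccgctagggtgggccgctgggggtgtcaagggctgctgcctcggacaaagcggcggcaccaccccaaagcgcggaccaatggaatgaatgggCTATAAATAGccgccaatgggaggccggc

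E-boxes, which basic helix-loop-helix factors bind, occurred 4 times in the whole window of *Mb* (1 of them after the start, outside the printed bases), once in *Ckm*, 4 times in *Ckmt2* and not at all in *Ckb*. An E-box was also found in 72.3% of all 32851 promoter windows of the table, so its presence sets these genes apart little. The *Ckb* window held the MEF2 consensus and the TATA motif, which 3.19% and 13.6% of all windows held, and the *Ckmt2* window held a GC box, as did 35.7%. The search took TATAAA alone, so the stretch TATATAA near the end of the printed *Ckm* bases was not counted as a TATA match. The ERR core was found in a single window, before one of the 4 listed starts of *Ak1*, against 4.72% of all windows. A further *Ak1* window held the MEF2 consensus and the TATA motif, both after the start. Neither the full ERR element (0.423% of all windows) nor the CArG box (1.63%) was found at any member.

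The 7 genes spanned a wide range of expression, compared here per length as the mean log2 RPKM over the 15 libraries. They lay from the 12.4th to the 99.7th percentile of all 14337 genes of the table. *Mb* was highest at 9.67 ± 0.73 (SD, n = 15), equal to a geometric mean of 816 RPKM and the 48th highest of all 14337 genes. *Ak1* followed at 7.34 ± 0.27, *Ckm* at 7.07 ± 0.88 and *Slc6a8* at 6.99 ± 0.22, then *Ckb* at 6.32 ± 0.33 and *Ckmt2* at 6.29 ± 1.06. *Gatm* was lowest at 0.28 ± 0.37, or 1.22 RPKM, and ranked 12558th. *Mb* lay above *Ak1* and *Ckmt2* above *Gatm* in 15 of 15 libraries, and *Slc6a8* above *Ckb* in 14 of 15. The neighbours *Ak1* and *Ckm*, *Ckm* and *Slc6a8*, and *Ckb* and *Ckmt2* each changed places between libraries, the first named being higher in 9 of 15, and their mean differences of 0.27, 0.08 and 0.03 were below the SDs of those differences (0.78, 0.98 and 0.87).

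**Figure D1:**
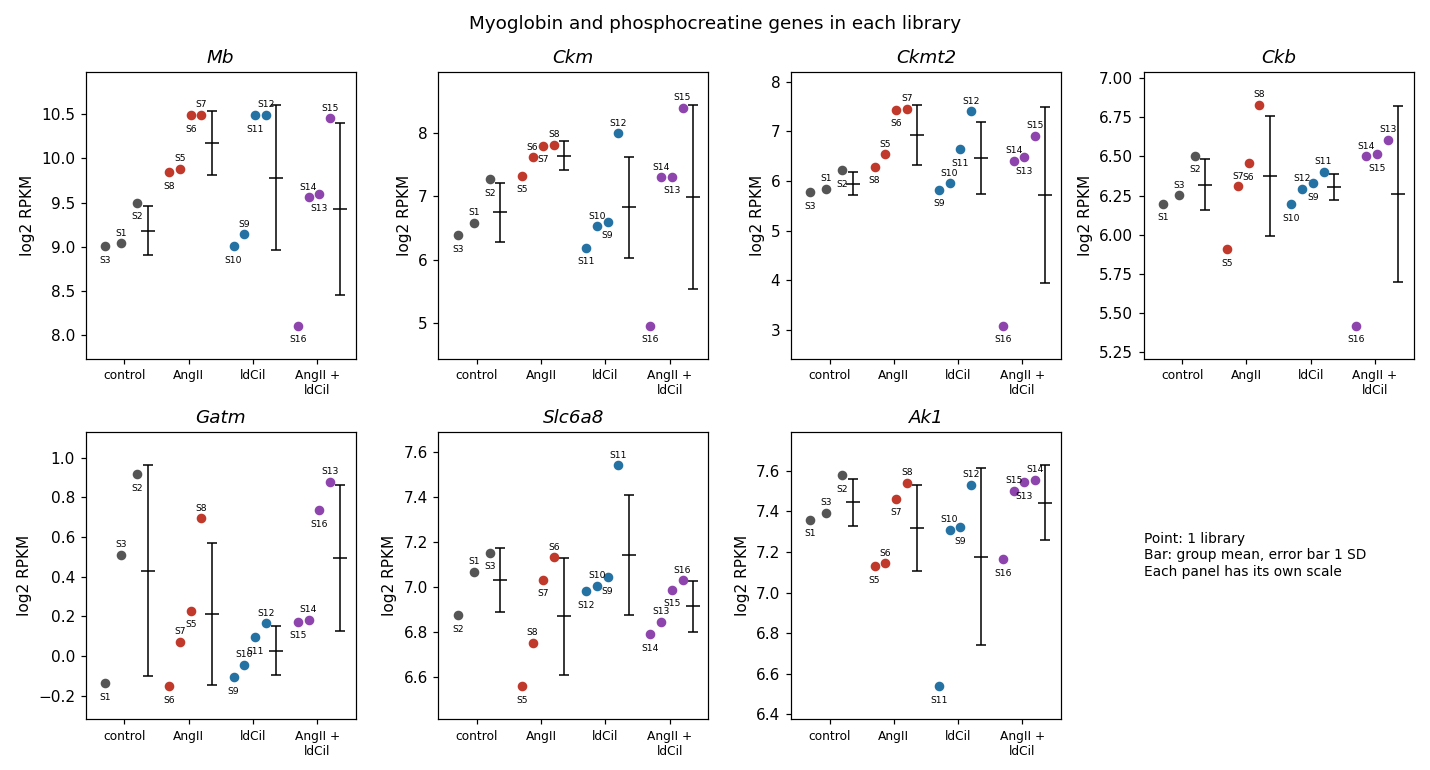
Level of each gene in log2 RPKM (vertical axes, 1 scale per panel) in the 15 libraries by treatment group; points are libraries, and bars show the group mean with 1 SD. For *Mb*, *Ckm* and *Ckmt2* the 4 AngII libraries lie above all 3 controls, and S16 is lowest for *Mb*, *Ckm*, *Ckmt2* and *Ckb*.

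Myoglobin was among the most abundant transcripts in each library. Its level was 9.04, 9.50 and 9.004 log2 RPKM in the controls S1, S2 and S3, and 9.88, 10.49, 10.49 and 9.84 in the AngII libraries S5 to S8. With ldCil it was 9.14, 9.004, 10.49 and 10.49 in S9 to S12, and with AngII + ldCil 9.59, 9.56, 10.45 and 8.11 in S13 to S16. All AngII libraries thus lay above all controls, the ldCil libraries fell into a low and a high pair, and S16 lay below every other library. The value 10.49 was the same in S6, S7, S11 and S12, in each of which *Mb* ranked 18th, against ranks 61 to 105 in the controls and 250 in S16. Group means were 9.18 ± 0.28 (SD, n = 3), 10.18 ± 0.36 (n = 4), 9.78 ± 0.82 (n = 4) and 9.43 ± 0.97 (n = 4) for control, AngII, ldCil and AngII + ldCil. Without S16 the mean of AngII + ldCil was 9.87 ± 0.51 (n = 3).

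Muscle creatine kinase, *Ckm*, encodes the cytosolic subunit that recharges ATP at the myofibrils. Its level was 6.58, 7.27 and 6.38 log2 RPKM in S1 to S3 and 7.33, 7.62, 7.80 and 7.82 in S5 to S8. It was 6.60, 6.52, 6.19 and 8.00 in S9 to S12 and 7.31, 7.30, 8.40 and 4.95 in S13 to S16. The AngII libraries again lay above all controls, the nearest pair being S2 and S5, whereas the other treated groups overlapped with the controls. The highest and the lowest library of all 15, S15 and S16, were both of the AngII + ldCil group. That group had a mean of 6.99 ± 1.45 (SD, n = 4), and of 7.67 ± 0.63 (n = 3) without S16.

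Sarcomeric mitochondrial creatine kinase, *Ckmt2*, makes phosphocreatine from ATP leaving the mitochondrion. Its level was 5.85, 6.23 and 5.78 log2 RPKM in S1 to S3 and 6.54, 7.44, 7.45 and 6.29 in S5 to S8. It was 5.83, 5.96, 6.64 and 7.41 in S9 to S12 and 6.48, 6.41, 6.92 and 3.09 in S13 to S16. The AngII libraries did not overlap with the controls, and S13 to S15 lay above them as well. The difference of S16 from the mean of the other 3 AngII + ldCil libraries was -3.515, and without it that group had a mean of 6.60 ± 0.27 (SD, n = 3) in place of 5.72 ± 1.77 (n = 4).

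Brain-type creatine kinase, *Ckb*, is the cytosolic subunit of brain, smooth muscle and the immature heart. Its level was 6.20, 6.51 and 6.25 log2 RPKM in S1 to S3 and 5.91, 6.46, 6.31 and 6.83 in S5 to S8. It was 6.33, 6.19, 6.40 and 6.29 in S9 to S12 and 6.61, 6.50, 6.52 and 5.42 in S13 to S16. The groups overlapped throughout and their means lay between 6.26 and 6.38, with S16 alone well below the rest.

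*Gatm* encodes the amidinotransferase that makes guanidinoacetate, the first step of creatine synthesis. Its transcript was sparse: -0.14, 0.92 and 0.51 log2 RPKM in S1 to S3, 0.23, -0.15, 0.07 and 0.70 in S5 to S8, -0.11, -0.04, 0.09 and 0.17 in S9 to S12, and 0.88, 0.18, 0.17 and 0.74 in S13 to S16. The controls alone covered almost the full range, so no group stood apart. The mean of *Gatm* over the libraries, 0.28, lies below 2.96, the level down to which the sorted values matched between libraries. Its values are thus less comparable. *Slc6a8*, the creatine transporter of the plasma membrane, was steady at 7.07, 6.88 and 7.15 in S1 to S3, 6.56, 7.13, 7.03 and 6.75 in S5 to S8, 7.05, 7.01, 7.54 and 6.98 in S9 to S12, and 6.85, 6.79, 6.99 and 7.03 in S13 to S16. Its highest value was in S11, and the next, in S3, was close to the rest. *Ak1*, the cytosolic adenylate kinase, was at 7.36, 7.58 and 7.39 in S1 to S3, 7.13, 7.15, 7.46 and 7.54 in S5 to S8, 7.32, 7.31, 6.54 and 7.53 in S9 to S12, and 7.55, 7.56, 7.50 and 7.17 in S13 to S16. Its lowest value was again in S11, and the other 14 libraries lay between 7.13 and 7.58.

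The first comparison asked what the hypertrophic stimulus did to these genes. *Mb*, *Ckm* and *Ckmt2* were 1.99-fold, 1.86-fold and 1.97-fold higher in AngII than in control cells, with no overlap between the groups. Of the 7 members 3 did not overlap, against 8.74% of all genes tested. The members were chosen with earlier results of these data known, so this share and the percentiles below are descriptions only. None passed limma's test, which takes the spread of each gene from all 4 groups: 0 of 7 members had an unadjusted p below 0.05, as had 6.04% of all genes, and with Benjamini-Hochberg adjustment 0 of 12848 genes (0%) were called. The log2 fold change of *Mb* was 0.99 (SE 0.48, 95% confidence interval -0.02 to 2.01, limma, unadjusted p of 0.0549, adjusted p = 0.782), that of *Ckm* 0.90 (SE 0.60, unadjusted p of 0.159, adjusted p = 0.793) and that of *Ckmt2* 0.98 (SE 0.71, unadjusted p of 0.186, adjusted p = 0.801). These lay at the 97.8th, 97.1st and 97.7th percentile of the fold changes of all genes. The other 4 members differed little, with log2 fold changes of 0.06 (*Ckb*), -0.22 (*Gatm*), -0.16 (*Slc6a8*) and -0.12 (*Ak1*), and intervals that reached from -0.92 to 0.60 at the widest. With quantile normalisation the log2 fold change of *Gatm* was -0.49. The median over the 7 members was 0.06, beside 0.02 over all genes.

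The p-values of *Mb*, *Ckm* and *Ckmt2* turned on the spread in groups outside this comparison. Fitted on the AngII and control libraries alone, the same fold changes had limma p-values of 0.002, 0.00373 and 0.012 (adjusted p = 0.503, 0.506 and 0.506), and 8.18% of all genes were below 0.05. With S16 left out of the full fit they were 0.0205, 0.0375 and 0.0186 (adjusted p = 0.7103 for each), with 6.65% of all genes below 0.05, so 3 of 7 members were below 0.05 in either fit and none passed adjustment. When limma weighted each library by its agreement with its group, the 3 genes passed adjustment (adjusted p = 0.000338, 0.00186 and 0.00102), as did 6245 of the 12848 genes, against 0 without weights.

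Library state moved with the difference between AngII and control cells. The cardiomyocyte list, without the members, ranged from -0.25 to -0.06 in control and from -0.13 to 0.19 in AngII libraries. The interferon-response list, 18 genes of which 17 were tested, ranged from 0.49 to 2.74 in control and from -1.91 to 2.09 in AngII libraries. Across all groups that list was at 2.09 or above in S1, S3, S5, S9 and S10, of which S1, S3, S9 and S10 were also the 4 libraries with *Mb* between 9.004 and 9.14, and S5 was not. With the cardiomyocyte list as a covariate the log2 fold changes of *Mb*, *Ckm* and *Ckmt2* were 0.42, 0.47 and 0.59 (limma, unadjusted p of 0.356, 0.481 and 0.463). With the interferon list they were 0.44, 0.67 and 0.59 (limma, unadjusted p of 0.341, 0.334 and 0.454). In these fits, which included S16, the direction of the fold changes was kept at a smaller size. With S16 the Pearson's r of *Mb*, *Ckm* and *Ckmt2* with the cardiomyocyte list was 0.565, 0.411 and 0.239. Without S16 it was 0.910, 0.798 and 0.840. How far the covariate fits depended on S16 was not tested. The cardiomyocyte list holds the hypertrophy marker *Myh7*, which AngII may itself move, so that covariate may also take out part of an AngII effect. Beyond these fits the part of library state in the difference was not tested.

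**Figure D2:**
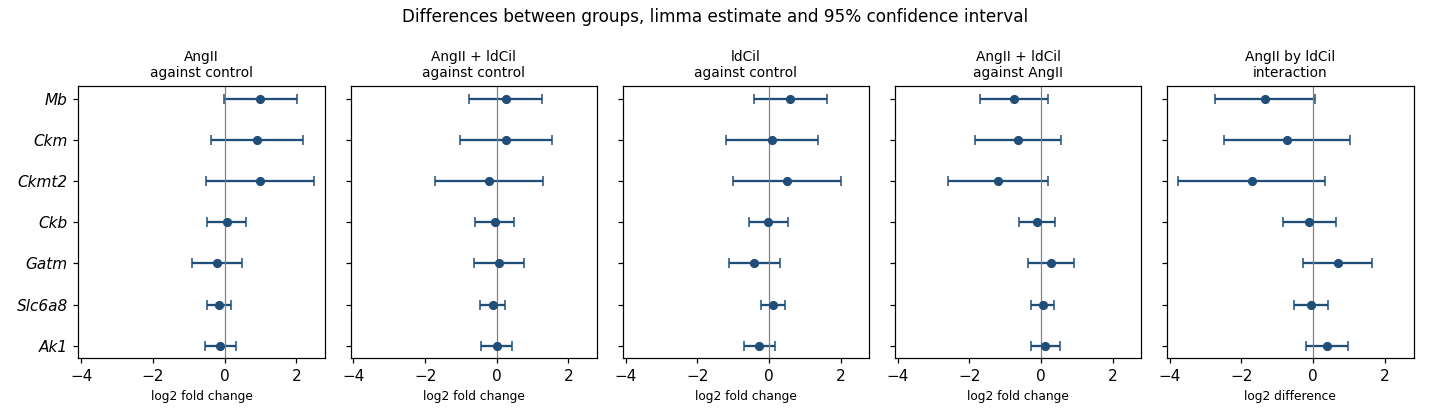
Differences between groups for each gene, as limma's log2 fold change or, in the right panel, the AngII by ldCil interaction (horizontal axis, log2), with 95% confidence intervals. Every interval includes 0, the nearest to excluding it being that of *Mb* in AngII against control (-0.02 to 2.01) and in the interaction (-2.74 to 0.04).

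The second comparison asked whether cells given both agents differed from control. *Mb* and *Ckm* differed by 0.25 each (SE 0.48 and 0.60) and *Ckmt2* by -0.23 (SE 0.71) on the log2 scale, *Ckb*, *Gatm* and *Ak1* by at most 0.06 in either direction, and *Slc6a8* by -0.12. Of the 7 members 0 were below an unadjusted limma p of 0.05 (5.62% of all genes; 0% after adjustment) and 0 did not overlap (13.5% of all genes). These values moved with S15 and S16. Without S15 the log2 fold changes were -0.095 for *Mb*, -0.22 for *Ckm* and -0.62 for *Ckmt2*. With the cardiomyocyte list as a covariate *Mb* and *Ckm* differed by -0.38 and -0.22, and with the interferon list by -0.45 and -0.03. Without S16 the log2 fold changes were 0.69 for *Mb*, 0.93 for *Ckm* and 0.65 for *Ckmt2*, and *Ckm* had a limma p of 0.0431 (adjusted p = 0.910), where 4.28% of all genes were below 0.05. In S13 to S15 all 3 genes lay above every control library.

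In the third comparison, ldCil alone was set against control. *Mb* was 1.52-fold and *Ckmt2* 1.42-fold higher, but the ldCil libraries overlapped with the controls, since S9 and S10 were at control level and S11 and S12 above it. Their log2 fold changes were 0.60 (95% confidence interval -0.42 to 1.62, limma adjusted p = 0.966) and 0.51 (-1.002 to 2.01, adjusted p = 0.966). The difference of *Mb* was 0.36 without S11 and that of *Ckmt2* 0.19 without S12, and with weighted libraries they were 0.12 and 0.15. *Ckm* differed by 0.08, with S12 high and S11 below all controls. *Gatm* and *Ak1* were lower by 0.40 and 0.27 (limma adjusted p = 0.966 for both), the first difference being -0.16 without S2 and the latter -0.06 without S11. Again 0 of 7 members were below an unadjusted p of 0.05 (1.95% of all genes; 0% after adjustment) and 0 did not overlap (6.87% of all genes). S9 and S10 had the interferon list at 2.71 and 2.41, S11 and S12 at -1.95 and -1.54. Its part in the division of this group was not tested.

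The fourth comparison asked what ldCil did to AngII-stimulated cells. *Ckmt2*, *Mb* and *Ckm* were lower with the drug, by log2 fold changes of -1.21 (SE 0.65, 95% confidence interval -2.60 to 0.19, limma, unadjusted p of 0.0852, adjusted p = 0.9997), -0.75 (SE 0.44, adjusted p = 0.9997) and -0.65 (SE 0.56, adjusted p = 0.9997). The other 4 members differed by -0.12 (*Ckb*) to 0.28 (*Gatm*). Of the 7 members 0 were below an unadjusted p of 0.05 (2.58% of all genes; 0% after adjustment) and 0 did not overlap (1.55% of all genes). The difference rested largely on S16. Without it *Ckmt2* differed by -0.33, *Mb* by -0.31 and *Ckm* by 0.03. Leaving out S15, the highest library for *Ckm*, had the opposite effect, and *Mb* (-1.09, limma, adjusted p = 0.939) and *Ckmt2* (-1.60, adjusted p = 0.939) were then below 0.05, as were 5.07% of all genes. The AngII libraries serve in this comparison and in the first, and the controls in the first 3, so their values are not independent of one another.

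The interaction asked whether AngII had a different effect with the drug present. AngII libraries differed from control by 0.99 in *Mb*, 0.90 in *Ckm* and 0.98 in *Ckmt2*, and AngII + ldCil libraries differed from ldCil libraries by -0.35, 0.16 and -0.73. The difference between these effects was -1.35 for *Mb* (SE 0.65, limma, unadjusted p of 0.056, adjusted p = 0.958), -0.73 for *Ckm* (SE 0.82, adjusted p = 0.958) and -1.71 for *Ckmt2* (SE 0.96, adjusted p = 0.958). It was positive for *Gatm* (0.68) and *Ak1* (0.39), and -0.10 for *Ckb* and -0.07 for *Slc6a8*. None of the 7 members was below an unadjusted p of 0.05, against 3.86% of all genes, and 0% of genes passed adjustment. Without S16 the values of *Mb*, *Ckm* and *Ckmt2* were -0.91, -0.05 and -0.83. Without S15 those of *Mb* and *Ckmt2* were -1.69 and -2.11 (limma adjusted p = 0.685 for both) and fell below an unadjusted p of 0.05, as did 7.20% of all genes.

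The balance between creatine kinases was compared within libraries, which cancels any shift that 2 genes share. A difference in the mix of cells between libraries need not cancel, and its part was not tested. *Ckm* exceeded *Ckb* by 0.38, 0.77 and 0.13 on the log2 scale in S1 to S3 and by 1.42, 1.16, 1.49 and 0.99 in S5 to S8. Muscle-type over brain-type kinase was thus higher in every AngII library than in any control, by 0.84 on average (2-sided exact permutation p = 0.0286, the smallest that 3 against 4 libraries allow; 0.343 adjusted over the 12 tests of this kind). In S9 to S12 the difference was 0.27, 0.33, -0.21 and 1.70 and in S13 to S16 0.71, 0.80, 1.89 and -0.46, so both groups overlapped with the controls. None of the 12 tests, which also covered *Ckmt2* minus *Ckm* and *Mb* minus *Ckm*, passed an adjusted p of 0.05, and this 1 had an unadjusted p below 0.05.

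Expressed as shares of the summed RPKM of the 3 kinases, *Ckm* made up 38.9% to 48.3% in control and 42.9% to 54.0% in AngII libraries, and *Ckb* 28.4% to 35.5% and 16.6% to 27.3%. *Ckb* held the largest share in S16, at 52.0%, where *Ckmt2* held 10.4%. In S11 *Ckmt2* had the largest share, 38.7%, and *Ckm* the smallest of any library, 28.4%. In the 13 others *Ckm* led. No counts were available for these shares, so they carry no counting interval.

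**Figure D3:**
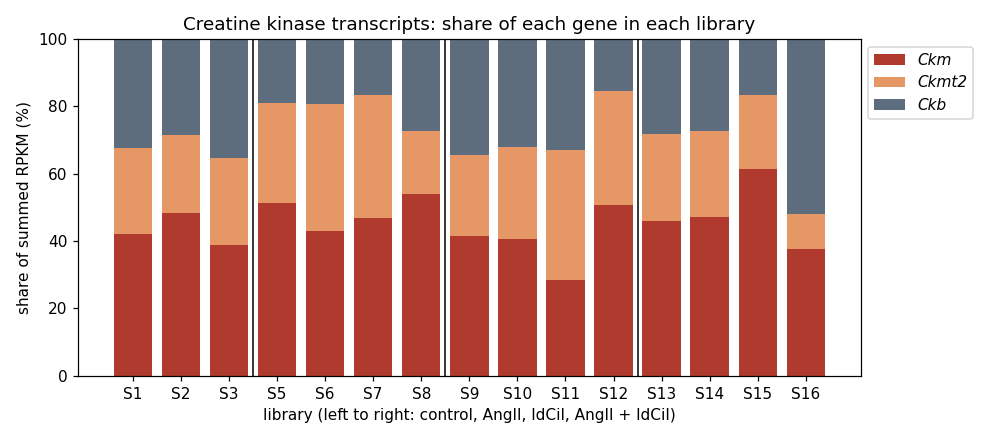
Share of *Ckm*, *Ckmt2* and *Ckb* in their summed RPKM (vertical axis, %) in each library (horizontal axis, grouped by treatment). *Ckb* is the largest part in S16 alone (52.0%), and in the AngII libraries S5 to S7 it lies between 16.6% and 19.2%.

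Most variation of the 7 genes lay within rather than between treatments. Treatment accounted for 27.2% of the variance of *Mb*, 27.1% of *Gatm*, 26.5% of *Slc6a8*, 21.7% of *Ckmt2*, 18.0% of *Ak1*, 17.5% of *Ckm* and 1.84% of *Ckb*, beside a median of 18.3% over all genes tested. *Ckmt2*, *Ckm* and *Mb* had wide ranges over the libraries, 4.36, 3.45 and 2.38 on the log2 scale, at the 98.9th, 97.3rd and 91.0th percentile of all genes. S16 was the lowest library for all 3, and over the 14 others their ranges were 1.67, 2.21 and 1.49, at the 80.6th, 90.7th and 75.04th percentile. Without S16 the treatment share of the variance was 35.8% for *Mb*, 36.4% for *Ckmt2*, 44.1% for *Ckm* and 17.7% for *Ckb*, beside a median of 19.8%. *Gatm*, *Ak1* and *Slc6a8* spanned 1.07, 1.04 and 0.98, close to the median of 1.07.

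*Mb* and *Ckmt2* varied together across libraries more closely than any other pair of members. Pearson's r was 0.902 over the 15 libraries and 0.923 without S16, as a description over points that share treatments and normalisation. For *Ckm* and *Ckmt2* it was 0.844, and 0.699 without S16. The values for *Ckb* with *Ckmt2* (0.673) and with *Ckm* (0.684) rested on S16, being 0.102 and 0.364 without it. *Slc6a8* and *Ak1* ran in opposite directions (-0.627, and -0.628 without S16), with S11 highest for one and lowest for the other.

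**Figure D4:**
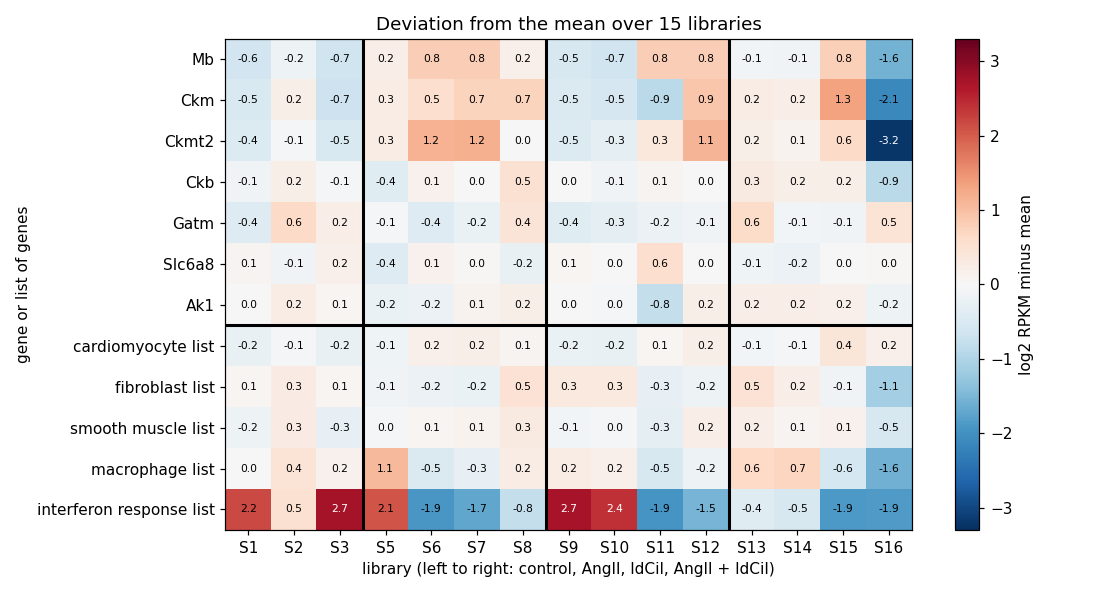
Deviation of each member and of 5 marker lists from its mean over the 15 libraries (colour and number, log2 RPKM), with libraries in columns by treatment. The lowest cell is *Ckmt2* in S16, and the interferon-response list is high in S1, S3, S5, S9 and S10.

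The genes most like each member across the 15 libraries were named by Pearson's r among all genes tested, as a description that shares the libraries and their normalisation. For *Mb* they were *Srsf3* (0.967), *Tnnt1* (0.951) and *Eno3* (0.950), the last 2 encoding the slow skeletal troponin T and the muscle enolase. For *Ckm* they were *Acat1* (0.976), *Sh3bgr* (0.963) and *Sdha* (0.963), of which *Acat1* and *Sdha* encode mitochondrial enzymes of ketone and succinate metabolism. For *Ckmt2* they were *Hhatl* (0.961), *Ptms* (0.952) and *Tuba8* (0.950). *Ckb* was most like *Postn* (0.944), *Wfs1* (0.919) and *Col6a1* (0.908), of which *Postn* and *Col6a1* encode matrix proteins of fibroblasts, and its r with the fibroblast list, which holds *Postn*, was 0.771. Without S16 *Ckb* had an r of 0.877 with *Postn*, 0.885 with *Wfs1*, 0.814 with *Col6a1* and 0.450 with the fibroblast list, and *Ckmt2* 0.883 with *Hhatl*, 0.895 with *Ptms* and 0.856 with *Tuba8*. *Mb* and *Ckm* then kept values of 0.926 to 0.967 and 0.935 to 0.959 with the genes named for them. The closest for *Slc6a8* were *Naa25* (0.945), *Scamp2* (0.939) and *Nol6* (0.933), for *Ak1* *Mtus1* (0.941), *Gnb5* (0.938) and *Fbh1* (0.933), and for *Gatm* *Gm29824* (0.788), *Arl16* (0.786) and *Tbc1d32* (0.773). The most opposed were *Sidt2* for *Mb* (-0.959), *Noc4l* for *Ckm* (-0.958), *Pgrmc2* for *Ckmt2* (-0.954), *Prdx6* for *Ckb* (-0.930), *Kat14* for *Gatm* (-0.818), *Dctn2* for *Slc6a8* (-0.958) and *Grwd1* for *Ak1* (-0.957). Of these, *Pgrmc2* was at -0.845 and *Prdx6* at -0.876 without S16.

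Other genes of the same metabolism were read from 5 lists with 54 genes, of which 47 were tested. At an unadjusted limma p below 0.05, 3 were higher and 3 lower in AngII than in control cells, 3 higher and 3 lower with both agents, 1 higher with ldCil alone, 2 higher in AngII + ldCil than in AngII cells, and 2 had a positive interaction. Over all genes, 6.04%, 5.62%, 1.95%, 2.58% and 3.86% were below 0.05 in these 5 comparisons. None passed adjustment in any comparison, and the median log2 difference over the 47 lay between -0.04 and 0.05.

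*Gamt*, the methyltransferase that completes creatine from the product of *Gatm*, was the listed gene with the smallest p in each comparison with control. Its transcript was sparse, with a mean of 0.62 log2 RPKM. That is below 2.96, the level down to which the sorted values matched between libraries, so its values are less comparable. Its level was -0.69, 0.04 and -1.11 log2 RPKM in S1 to S3, 0.26, 1.28, 1.92 and 0.99 in S5 to S8, -0.35, 0.13, 1.59 and 1.52 in S9 to S12, and 0.41, 0.81, 1.65 and 0.79 in S13 to S16. All AngII and all AngII + ldCil libraries lay above the controls, while the ldCil libraries S9 and S10 fell among or near them. Of all genes tested, 8.74% and 13.5% had no overlap in these 2 comparisons with control. The log2 fold changes were 1.70 with AngII (SE 0.52, limma, unadjusted p of 0.00569, adjusted p = 0.782), 1.50 with both agents (adjusted p = 0.849) and 1.31 with ldCil (adjusted p = 0.966). Of the other creatine genes, *Slc16a12*, a membrane transporter of creatine, was lower by 0.69 with both agents (limma adjusted p = 0.849), and *Mtr*, the methionine synthase, had an interaction of 0.48 (adjusted p = 0.958). *Slc16a12*, with a mean of 2.04, lay below 2.96 as well. *Ckmt1*, the ubiquitous mitochondrial creatine kinase, had a mean of -0.97 log2 RPKM and was not tested.

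Among genes of adenine nucleotide balance, *Ak3*, the adenylate kinase of the mitochondrial matrix, was lower by 0.35 with AngII (limma adjusted p = 0.782) and *Ampd3*, an AMP deaminase, by 0.91 with both agents (adjusted p = 0.849). *Prkaa2*, a catalytic subunit of the AMP-activated kinase, was at 5.57, 6.03, 6.28 and 6.28 log2 RPKM in S5 to S8 and at 6.36, 6.51, 6.65 and 7.01 in S13 to S16. The 2 groups did not overlap, as in 1.55% of all genes tested. The log2 fold change of AngII + ldCil against AngII was 0.60 (SE 0.19, limma, unadjusted p of 0.00658, adjusted p = 0.9997). Its interaction was 0.85 (limma adjusted p = 0.958). S16, lowest in *Mb* and the 3 kinases, was the highest library in *Prkaa2*.

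The carriers that pass ATP and ADP across the mitochondrial membranes held 0 of 5 tested genes below 0.05 in any comparison. *Slc25a4*, the heart-type nucleotide carrier, had the list's smallest p with AngII (log2 fold change 0.18, limma adjusted p = 0.803) and with both agents (0.22, adjusted p = 0.849). *Vdac3*, a pore of the outer membrane, had it with ldCil alone (-0.12) and in the interaction (0.11), and *Slc25a5*, a further nucleotide carrier, in AngII + ldCil against AngII (0.04). Of 11 tested globin and haem genes, *Alad*, an early enzyme of haem synthesis, was higher by 0.49 with AngII (limma adjusted p = 0.782), *Cpox*, a later one, higher by 0.59 in AngII + ldCil than in AngII cells (adjusted p = 0.9997), and *Uros*, the list's smallest p with ldCil alone, lower by 0.32 (adjusted p = 0.966).

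Of 16 transcriptional regulators, *Hif1a*, the oxygen-regulated subunit of the hypoxia-inducible factor, was lower with AngII by 0.76 (limma adjusted p = 0.782) and with both agents by 0.73 (adjusted p = 0.849). It was at 7.97, 7.41 and 8.08 log2 RPKM in S1 to S3, between 6.96 and 7.12 in the AngII and between 7.03 and 7.18 in the AngII + ldCil libraries. Neither group overlapped with the controls, as in 8.74% and 13.5% of all genes tested. With ldCil *Hif1a* divided into the same pairs as *Mb* but in the opposite direction, with 7.97 and 8.04 in S9 and S10 and 6.63 and 7.02 in S11 and S12. *Mtr*, *Ak3*, *Ampd3*, *Prkaa2*, *Alad* and *Nfatc2* had no overlap between AngII and control either. With both agents this held for *Ak3*, *Ampd3*, *Alad*, *Cpox*, *Ppargc1b*, *Gata4*, *Nfatc2* and *Nfatc4*. Overlap was looked at only in the listed genes named here, which were picked by their p-values in these data. Their number therefore cannot be set against the share of all genes. *Nfatc2* was higher by 0.53 and *Nfatc4* lower by 1.04 with AngII (limma adjusted p = 0.782 for both), and *Gata4* and the coactivator *Ppargc1b* were higher by 0.57 and 0.31 with both agents (adjusted p = 0.849 for both). *Nfatc2* and *Nfatc4* had means of 2.56 and 2.02, below 2.96, so their values are less comparable. *Nfatc3* had the smallest p in AngII + ldCil against AngII, with 0.20 (limma adjusted p = 0.9997). The MEF2 and ERR factors on the list, whose motifs were searched above, held no gene below 0.05.

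In the GENCODE M21 annotation of GRCm38 the exons of *Mb* (chromosome 15, 77015487 to 77050670, minus strand) share 412 bases with the antisense gene *Gm49540* and 64 bases with *Apol6*. Those of *Ckm* (chromosome 7, 19404776 to 19422841, plus strand) share 451 bases with antisense *A930016O22Rik*, and those of *Ckmt2* (chromosome 13, 91853387 to 91876885, minus strand) 84 bases with antisense *1700119I11Rik*. Whether the counting used strand is not given in the sources used here, so reads of these partners cannot be told apart from those of the members. *Ckb* (chromosome 12, 111669361 to 111672338, minus strand), *Gatm* (chromosome 2, 122594467 to 122611303, minus strand), *Slc6a8* (chromosome X, 73673150 to 73682502, plus strand) and *Ak1* (chromosome 2, 32621758 to 32635058, plus strand) share no exonic base with another gene.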

How the data were processed

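The deposited values are log2 RPKM of 14337 genes in 15 libraries, which the authors obtained after conditional quantile normalisation. The submitters' notes name HISAT2 and HTSeq and the build GRCm38. Neither tool's version nor the annotation release and strandedness is given in the sources used here. Counts were not used, so no depth or counting error can be stated. Columns of values that matched no sample numbered 0. Identifiers were matched to GENCODE M21 (14329 of 14337).

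Genes with a mean of at least 0 were tested (12848) with limma 3.58.1 in R 4.3.3, with 1 mean per group over all 15 libraries, empirical Bayes moderation with a trend and no covariate. P-values are 2-sided, with Benjamini-Hochberg adjustment over all genes tested. They measure the spread between libraries, which may be technical. The threshold was 0.05. Differences within libraries were tested by exact permutation. Levels of lists are means of log2 values centred per gene. Geometric mean RPKM was computed from mean log2 values. The fit was tested on simulated data. Marker and pathway lists came from textbook knowledge, and the members and lists were chosen with earlier results of these data known. All members were named, with listed genes below an unadjusted p of 0.05 or with the smallest p of their list in a comparison, and the 3 most alike and the most opposed genes of each member. Alternatives were other filters, pseudocounts, centring, quantile normalisation, moderation without a trend or robust, only the groups compared, library weights, list covariates and each library left out. Leaving out S11 and S16 together was chosen after seeing the data.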

Additional observations from a re-analysis of the deposited data

Results flagged for a closer look

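In 30 sets of 4 values (each member and each difference within libraries, in AngII, ldCil and AngII + ldCil), 6 had a library whose gap to its nearest neighbour exceeded Dixon's 95% critical value. Chance gives such a flag in about 1 in 20 sets. The sets share genes and libraries, and every flag was in S11 or S16, so the 6 flags are not independent of one another. In the AngII + ldCil group S16 was far below the others in *Ckmt2* (3.09 against a next value of 6.41 log2 RPKM), in *Ckb* (5.42 against 6.50) and in *Ak1* (7.17 against 7.50). In the ldCil group S11 was far above the others in *Slc6a8* (7.54 against 7.05), in *Mb* minus *Ckm* (4.30 against 2.54) and in *Ckmt2* minus *Ckm* (0.45 against -0.57). S11 was the only library in which *Ckmt2* exceeded *Ckm*. No interaction of a member passed limma's test after adjustment.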

How the results depend on the processing

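No paired analysis was possible because replicate numbers follow accession order only. In the fit reported no member was below an unadjusted p of 0.05 in any of the 5 comparisons. Fitting only the groups compared brought 3 below it in AngII against control. Library weights, which gave S5 the lowest weight (0.11) and S1 the highest (7.01), brought 3 below it in AngII against control, 4 in AngII + ldCil against control, 3 in AngII + ldCil against AngII and 2 in the interaction, where 55.5%, 32.7%, 44.9% and 36.4% of all genes were below it too. With these weights 6245, 2311, 3, 4048 and 2387 genes passed adjustment in the 5 comparisons, in the order of the report, against 0 in each without. Members among them were *Mb*, *Ckm* and *Ckmt2* with AngII, *Ckm* (0.66) and *Slc6a8* (-0.23) with both agents, *Mb* (-0.87) and *Ckmt2* (-0.997) in AngII + ldCil against AngII and *Mb* (-0.995) in the interaction. The cardiomyocyte list as a covariate brought 1 below it in AngII + ldCil against AngII, and the interferon list 1 there and 1 in the interaction, each being *Mb*. Leaving out S11 and S16 together brought 3 below it in AngII against control and 1 in AngII + ldCil against control. Why the counts moved was not tested. The counts with single libraries left out ran from 0 to 3 in AngII against control (3 without S16, 1 without S15, 1 without S10), 0 to 1 in AngII + ldCil against control (1 without S16), 0 to 2 in AngII + ldCil against AngII (2 without S15) and 0 to 2 in the interaction (2 without S15, 1 without S9, 1 without S10), and with ldCil alone the count was 0 throughout.

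Log2 differences that changed sign are given by setting, none of them past an adjusted p of 0.05 in either fit. With quantile normalisation this was *Gatm* -0.20 in AngII + ldCil against control. With library weights they were *Ckmt2* 0.48, *Ckb* 0.27 and *Ak1* 0.15 in AngII + ldCil against control, *Ckb* 0.022 and *Slc6a8* -0.022 in ldCil against control, *Ckb* 0.13 and *Slc6a8* -0.21 in AngII + ldCil against AngII and *Ckb* 0.11 in the interaction. With the cardiomyocyte covariate they were *Mb* -0.38, *Ckm* -0.22 and *Ak1* 0.011 in AngII + ldCil against control and *Ckm* -0.13 in ldCil against control. With the interferon covariate they were *Ckb* -0.033 in AngII against control, *Mb* -0.45, *Ckm* -0.032, *Gatm* -0.019 and *Ak1* 0.085 in AngII + ldCil against control and *Ckm* -0.047 in ldCil against control. Without S11 and S16 they were *Ckmt2* 0.65, *Ckb* 0.22, *Gatm* -0.019 and *Ak1* 0.090 in AngII + ldCil against control, *Slc6a8* -0.021 in ldCil against control, *Ckm* 0.031 and *Ckb* 0.17 in AngII + ldCil against AngII and *Ckb* 0.21 and *Slc6a8* 0.026 in the interaction. Where leaving out single libraries changed a sign, the log2 differences ran as follows. In AngII against control they were *Ckb* -0.094 to 0.21 and *Gatm* -0.50 to 0.024. In AngII + ldCil against control they were *Mb* -0.10 to 0.69, *Ckm* -0.22 to 0.93, *Ckmt2* -0.62 to 0.65, *Ckb* -0.17 to 0.22, *Gatm* -0.22 to 0.31 and *Ak1* -0.044 to 0.090. In ldCil against control they were *Ckm* -0.31 to 0.35, *Ckb* -0.074 to 0.080 and *Slc6a8* -0.021 to 0.17. In AngII + ldCil against AngII they were *Ckm* -1.12 to 0.031, *Ckb* -0.27 to 0.17 and *Slc6a8* -0.059 to 0.13. In the interaction they were *Ckb* -0.26 to 0.18 and *Slc6a8* -0.17 to 0.065. Of the differences within libraries, *Ckm* minus *Ckb* ran from -0.079 to 0.70 in AngII + ldCil against control, *Ckm* minus *Ckb* ran from -0.30 to 0.34 in ldCil against control, *Ckmt2* minus *Ckm* ran from -0.094 to 0.36 in AngII against control, *Mb* minus *Ckm* ran from -0.014 to 0.27 in AngII against control, *Mb* minus *Ckm* ran from -0.24 to 0.13 in AngII + ldCil against control and *Mb* minus *Ckm* ran from -0.34 to 0.029 in AngII + ldCil against AngII. The sign of *Mb*, *Ckm* and *Ckmt2* in AngII against control was kept in every alternative run, at 0.42 to 1.35, 0.47 to 1.16 and 0.59 to 1.48.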

Other observations

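Genes other than the members divided the ldCil libraries into the same pairs as *Mb*, *Gamt* in the same direction and *Ampd3* and *Nfatc4* in the opposite one. *Gamt* was at -0.35 and 0.13 log2 RPKM in S9 and S10 and at 1.59 and 1.52 in S11 and S12, *Ampd3* at 5.60 and 5.61 against 4.25 and 4.52, and *Nfatc4* at 2.72 and 2.56 against 1.22 and 1.33. *Gamt* and *Nfatc4* lay below the range in which the sorted values matched between libraries. *Ckm*, by contrast, was at 6.60 and 6.52 in S9 and S10 and at 6.19 and 8.00 in S11 and S12. Over all 15 libraries the interferon-response list had a Pearson's r of -0.53 with *Mb*, -0.27 with *Ckm* and -0.21 with *Ckmt2*, and of -0.894, -0.630 and -0.831 without S16. For the smooth muscle list it was 0.56, 0.89 and 0.70, and 0.313, 0.811 and 0.426 without S16. For the cardiomyocyte list it was 0.565, 0.411 and 0.239, and 0.910, 0.798 and 0.840 without S16. For the fibroblast list it was 0.104, 0.443 and 0.420, and -0.685, -0.151 and -0.646 without S16. These are given as descriptions of libraries that share treatments and normalisation. The skeletal muscle list, 8 genes of which 3 were in the table and 1 was tested (*Tnnt3*, mean 0.43), gave little to compare with.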
